A study of Mus musculus with 48 samples.

Results

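TEC is the GENCODE gene class for transcribed regions, mostly unspliced, that still await experimental proof. In the deposited table of read pairs counted per gene, 281 TEC genes were chosen for having a mean of at least 10 raw counts over the 48 libraries, leaving out A830073O21Rik and Gm26596. They were 281 of the 2538 TEC genes and of the 48440 genes in the table. Since the mean count chose them, their levels are given as a description, with no test. The samples were total RNA of the amygdala of adult male mice aged 4 months, labelled C57BL/6 and, per the study's methods, backcrossed on C57BL/6N, with 8 mice in each of 6 groups. Tph2, which encodes the enzyme that makes serotonin in the brain, was intact (Tph2+/+), inactivated on a single allele (Tph2+/-) or on both alleles (Tph2-/-). The inactivation was constitutive, in all tissues and for life. Mice of each genotype had either been taken from the dam for 3 h per day from postnatal day 2 to 15 (maternal separation, MS) or had been raised without this stress (control, C). Per the study, mice of both rearings were housed singly after weaning and went through tests of anxiety, locomotion and aggression before tissue was taken. One library was made per mouse, and mice of different groups came from litters of Tph2+/- parents. Per the study's methods, MS or control was assigned to whole litters. The litter of each mouse was not known here, so mice of a group may share one.

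A TEC gene is drawn around reads or cDNA clones that fit no known exon chain, and often has a single exon. Such regions can be transcripts of their own, antisense RNAs that start at the promoter of a gene on the other strand, or parts of longer RNAs such as introns and extended ends. In brain, antisense RNA is well known from imprinted loci, where the RNA read against Ube3a silences the paternal Ube3a allele in neurons. The annotation used here, GENCODE M21, shares the build GRCm38 with the deposited data.

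Counts on genes ranged from 609489 to 6296568 per library, with a median of 738490, and between 75.8% and 97.6% of the read pairs with a unique place lay on no gene (median 97.5%). In the median library 3 counts made 4.06 CPM, the usual unit of counts scaled to library size. Each p-value below rests on the spread between mice, taken as independent and with no term for litter. In bulk RNA fewer cells of a type and less RNA per cell cannot be told apart. The 281 TEC genes took 5.67% of the counts on genes in the median library and 0.31% in a library dominated by Gm42418, which had more than 500000 counts in 4 libraries (1 each of Tph2+/+ C, Tph2+/+ MS, Tph2+/- C and Tph2-/- C). Of 101 cell type and pathway markers listed for neurons, glia, vessels, stress and serotonin, all were in the table and 19 had a mean of at least 10 counts, with a median of 2.38. The amygdala could therefore not be checked well from its defining markers, and the genotype could not be checked from Tph2, whose highest count was 1. Protein-coding genes had a median of 0.71 counts, and 3082 of 21683 (14.2%) reached a mean of 10, against 283 of 2538 TEC genes (11.2%). The library kit keeps the strand of the RNA, while the strand setting used in counting is not given in the sources used here. A setting opposite to that of the kit would place the reads of a gene on features of the other strand, so that, from these counts alone, RNA of a TEC gene and RNA of the gene opposite to it cannot be told apart.

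The exon sequences that carry the findings are shown first, as stretches of 120 bases read 5′ to 3′ along the TEC gene, with each CG pair in capitals. They come from the GENCODE M21 transcripts on GRCm38. Gm37376 was the most abundant of the 281 and lies inside Malat1 on the other strand (chr19:5802107-5802226, plus strand, 7 CG pairs). Gm9870 (chr5:72914184-72914303, minus strand), Gm45444 (chr7:45814582-45814701, plus strand), Gm9905 (chr7:121034325-121034444, minus strand) and Gm10461 (chr5:32611051-32611170, minus strand) lie across the start of a gene on the other strand and had a negative lg2FC (log2 fold change) for GE1, the interaction of MS with the Tph2+/- genotype. Their stretches are centred 60 or 61 bases from an annotated start of the opposite gene. Gm38273 (chr2:14736677-14736796, minus strand) lies opposite to an intron of Cacnb2 and had a positive lg2FC for GE1.
Gm37376: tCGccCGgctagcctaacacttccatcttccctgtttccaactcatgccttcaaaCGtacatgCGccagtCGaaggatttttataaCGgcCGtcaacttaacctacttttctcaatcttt
Gm9870: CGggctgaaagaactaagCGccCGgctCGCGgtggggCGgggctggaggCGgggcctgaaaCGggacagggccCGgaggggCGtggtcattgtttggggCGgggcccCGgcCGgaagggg
Gm45444: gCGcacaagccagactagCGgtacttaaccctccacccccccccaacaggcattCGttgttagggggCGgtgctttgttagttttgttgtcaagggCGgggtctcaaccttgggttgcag
Gm9905: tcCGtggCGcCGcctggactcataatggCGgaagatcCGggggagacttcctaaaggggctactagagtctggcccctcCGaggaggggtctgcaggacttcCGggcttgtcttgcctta
Gm10461: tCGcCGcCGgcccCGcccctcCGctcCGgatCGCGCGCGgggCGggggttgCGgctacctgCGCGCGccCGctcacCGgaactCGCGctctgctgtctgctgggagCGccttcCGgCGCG
Gm38273: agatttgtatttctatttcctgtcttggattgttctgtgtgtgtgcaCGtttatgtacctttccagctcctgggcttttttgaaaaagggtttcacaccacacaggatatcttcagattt
In these stretches CG pairs numbered 13 in Gm9870, 5 in Gm45444, 7 in Gm9905 and 23 in Gm10461, against 1 in Gm38273. The share of G and C was 75.0%, 57.5%, 61.7% and 80.0% in the first 4, and 39.2% in the stretch of Gm38273.

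Most of the 281 TEC genes had another gene on the opposite strand. For 152 (54.1%) the exons overlapped exons of that gene, a further 94 (33.5%) lay only within its body, and 35 (12.5%) had no gene opposite. Among all 2538 TEC genes these classes held 291 (11.5%), 255 (10.05%) and 1992 (78.5%). Read the other way, 52.9% of the TEC genes with an exon opposite to an exon reached a mean of 10 counts, 36.9% of those opposite to a gene body and 1.76% of those with none. The body of another gene on the same strand overlapped 31 of the 281 and 1368 of all 2538 TEC genes. The shares were not split by this overlap, and its part in them was not tested. The opposite gene was protein coding for 224 of the 281, a lincRNA for 10 and another TEC gene for 5. The exons shared a median of 379.5 bases (up to 3069), and for 11 TEC genes their whole exonic length lay opposite to exons.

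The part of the opposite gene they covered was grouped by its annotated starts and ends. Only a start was covered by 71, only an end by 38, both by 13, only internal exons by 30 and only introns by 94. By counts, which also grow with length, those over both a start and an end had the highest median (139), followed by ends (102), internal exons (63.8), starts (54.0), introns (31.6) and those with no opposite gene (20.1). Base composition followed the same parts, with a median of 54.1% G and C and 46.8 CG pairs per kb over starts, against 41.7% and 6.96 per kb over introns. Of the 281, 277 have 1 exon, with a median of 2127 exonic bases, from 128 to 30942. The poly(A) signal AATAAA stood in the last 40 bases of 79 (28.1%), against 19.9% of all TEC genes. Its reverse complement, TTTATT, stood in the first 40 bases of 21 (7.47%), against 5.20% of all TEC genes. Both strands held about the same number, 140 on the plus and 141 on the minus strand. Chromosomes 1, 3, 5, 6, 7 and 8 held 230 of the 281 (81.9%), against 81.2% of all TEC genes in the table.

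**Figure D1:**
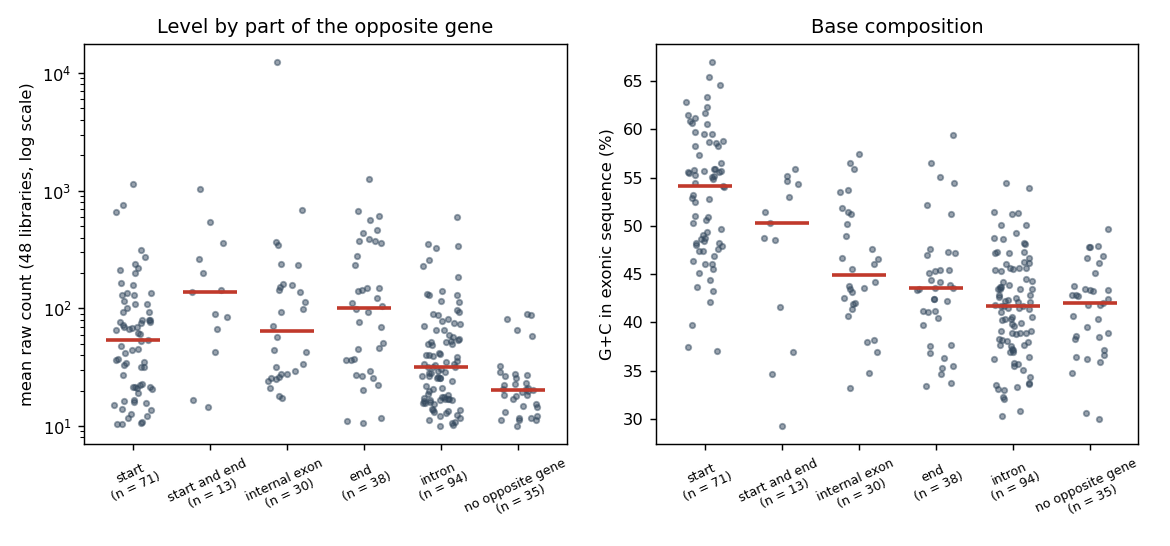
Each point is a TEC gene with a mean of at least 10 counts, set by the part of the opposite gene it covers. The left panel gives the mean raw count over 48 libraries on a log axis and the right panel the percentage of G and C in its exons, with red bars at the medians. The median share of G and C was 54.1% over starts and 41.7% over introns.

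The levels of the 281 TEC genes spread over 3 orders of magnitude in counts, from 10.1 to 12377, with a median of 38.6. A mean of at least 100 counts was reached by 70, and one of at least 1000 by 4. All but 2 had at least 1 count in every library, and the other 2 were missed in a single library each. Gm37376 alone made 30.4% of their summed counts and the first 12 made 51.3%. Over the 48 mice the coefficient of variation of CPM had a median of 23.7% and ranged from 7.80% for Gm44103 to 63.3% for Gm9870.

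Gm37376 (chromosome 19, 5801941 to 5802393, plus strand) lies with all of its 453 exonic bases opposite to an exon of Malat1, a long RNA of the nucleus. It had 3205 to 20336 counts, with a median of 13466.5, while Malat1 itself had a mean of 135, from 10 to 277. Per kb of exon it stood at 36547 CPM, against a median of 32.3 for the 281. Groups overlapped widely, with medians from 16241 CPM in Tph2+/- C to 18595 CPM in Tph2+/+ C. In the median library it made 31.5% of the counts on the 281. It made 9.38% in replicate 8 of Tph2+/- MS, 10.6% and 11.0% in replicates 4 and 2 of Tph2-/- MS, and 17.8% in replicate 7 of Tph2+/+ MS. These libraries also had the highest slopes of gene levels on G and C, described below (0.40, 0.27, 0.29 and 0.25). The cause was not tested.

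Behind it came Gm44002 (chromosome 6, 91173425 to 91174018, minus strand), which lies wholly opposite to an exon of Hdac11, a histone deacetylase. It had a mean of 1253 counts (679 to 2140) and Hdac11 1.27 (0 to 5). Gm10252 (chromosome 7, 45459469 to 45460300, plus strand) covers the start of Ftl1, the ferritin light chain, with 1147 counts (547 to 1707) against 2.38 for Ftl1. Both were steady across the mice, with a coefficient of variation of 11.2% and 11.0%. Gm37811 (751 counts) covers the start of C1ql3, a secreted protein of synapses, and Gm43361 (682) overlaps 83 exonic bases of Atp2a2, the calcium pump of the endoplasmic reticulum. Gm43857 (674) covers an end of Usp33, a deubiquitinase, and Gm37676 (568) lies wholly opposite to Nucks1. Gm43047 (655) lies opposite to another TEC gene, Gm43046, and Gm33366 (613) opposite to the lincRNA C130071C03Rik. By CPM per kb of exon the order was led by Gm37376, Gm44002 (2801), Gm45236 (2718, opposite to an end of Gde1), Gm10252 (1820), Gm37676 (1496) and Gm19918 (776, opposite to an end of Fam20b). Of these 6, all but Gm10252 lay over their whole length opposite to exons.

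To show how these regions end, the last 30 bases of 4 of the 12 most abundant are given 5′ to 3′, with AATAAA in capitals where it occurs.
Gm37811: ggtcttacAATAAAgcaagtggtatttgcg
Gm33366: caggttttatcaAATAAAaaaatgtaaatt
Gm44002: ctcttccaccccaaaggcccagagaccctt
Gm37376: tccctttacaatctcctaaactgctctggt
Gm37811 and Gm33366 were the only 2 of the 12 that held the signal there.

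In pairs of a TEC gene and its opposite gene, only the TEC gene had to reach a mean of 10 counts, so that the rule favours a higher count of the TEC gene and nothing is read from its direction. Of 244 whose opposite gene is in the table, 208 had a higher mean count than that gene and 36 a lower one, and for 166 the opposite gene had a mean below 10 counts. The median ratio of the means was 14.7, and the ratio was 986 for Gm44002 and Hdac11. Counts of a TEC gene and of its opposite gene come from the same libraries but from features of unequal length, so the ratio compares reads and not levels per length. The longest overlaps with exons of protein-coding genes were those of Gm37206 with Rbm4b (3069 bases), Gm43766 with Rab2b (2469), Gm18310 with Hddc3 (2454) and Gm44560 with Ube3a (2025). Rbm4b, which encodes an RNA-binding protein, had a mean of 648 counts against 111 of Gm37206, and Hddc3 had 286 against 122 of Gm18310. Rab2b, a small GTPase of the Golgi, went the other way, with 6.06 counts against 371 of Gm43766.

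**Figure D2:**
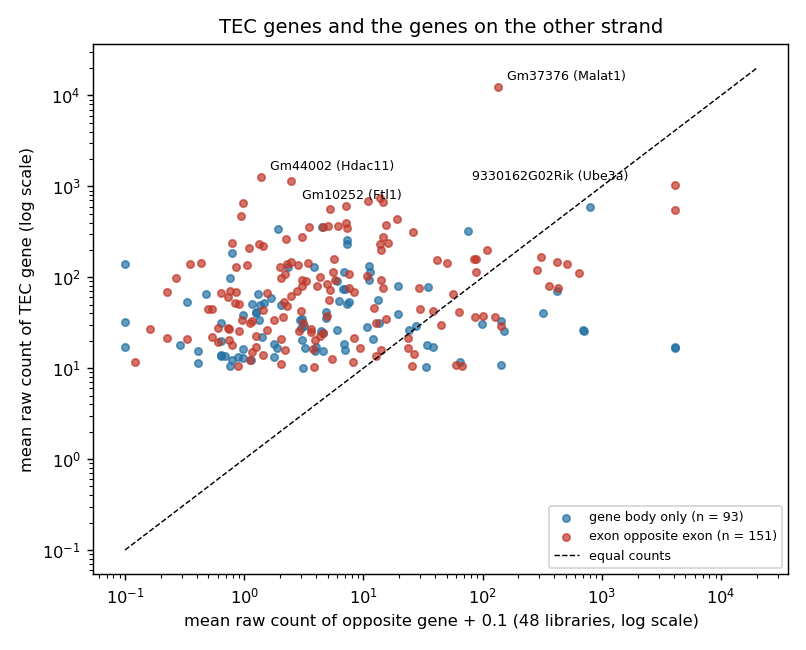
Each point is a TEC gene with its opposite gene, with the mean raw count of the opposite gene plus 0.1 across and that of the TEC gene upward, both over 48 libraries and on log axes. Red points share exonic bases with the opposite gene, blue points only lie in its body, and the dashed line marks equal counts. 208 of the 244 pairs lie above the line, and Gm37376 lies farthest up.

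Some opposite genes carried several of them. 15 genes had at least 2, which took in 37 of the 281. Ube3a, a ubiquitin ligase, and Lrrc7, a scaffold of the postsynaptic density, had 4 each. Over Ube3a, 9330162G02Rik (422 to 1403 counts, median 1026.5) and Gm44560 (204 to 810, median 562.5) share exons with it, while Gm44562 (7 to 33, median 17) and Gm44559 (8 to 30, median 16) lie opposite to introns. Per kb of exon Gm44560 stood at 233 CPM, 9330162G02Rik at 44.3, Gm44559 at 22.2 and Gm44562 at 16.95, so that the exon-sharing pair stood above the intronic pair on both scales. Ube3a itself had a mean of 4081 counts, the most of any opposite gene. Next to it, Gm44829 (226 to 806 counts, median 620) lies in the body of Snhg14, the host of the antisense RNA to Ube3a, and Gm44830 (23 to 195, median 89) has no opposite gene. None of these 6 passed the thresholds of a difference among groups, with lg2FC from 0.04 to 0.70 for GE1. Over Lrrc7, which had a mean of 7.19 counts, Gm42968, Gm43485, Gm43486 and Gm43487 had means of 344, 257, 231 and 51.5 counts.

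The 35 TEC genes with no opposite gene had at most 89.6 counts on average. The 6 with the most were Gm44830 (89.6), Gm37570 (87.2), Gm42944 (81.9), Gm42741 (66.1), Gm38387 (58.2) and Gm38309 (32.4). At the limit of 10 counts, Gm43415 and Gm37285 (both 10.1) and Gm44669 (10.2) were just inside and Gm37277 (9.85), Gm43040 (9.77) and Gm43418 (9.75) just outside. A single TEC gene lies opposite to a listed marker gene, namely Dlx6os2 over the start of Dlx6, a transcription factor of inhibitory neurons. Dlx6os2 had 4 to 28 counts (median 13) and Dlx6 a mean of 12.7, so that this pair had nearly equal counts.

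Differences among the groups were sought by edgeR's quasi-likelihood test over the 5644 genes with at least 10 counts on average, and p-values were adjusted over all of them by Benjamini-Hochberg. Differentially expressed genes (DEGs) were those whose unadjusted p was under 0.01 and whose lg2FC exceeded 0.2 in size, and for the test among all groups the p alone decided. In that test 10 of the 281 TEC genes (3.56%) had a p below 0.01, against 2.32% of all genes tested. None passed an adjusted p of 0.05, which 0.0709% of all genes did, and 24 had an unadjusted p below 0.05 (8.54%, against 6.93% of all genes). With the smallest p came Gm45444 (adjusted p = 0.13), followed by Gm9905, Gm38273, 4933440N22Rik and Gm9870. Gm43808, Gm43545, Gm37811, Gm45667 and Gm10676 came next, the last with an adjusted p = 0.337. Of the 10, all but Gm38273 cover a start of the opposite gene. The animal numbers of 17 control mice lie below and those of 7 (2 Tph2+/+, 2 Tph2+/- and 3 Tph2-/-) above the numbers of every MS mouse, so that the numbers of control and MS mice do not overlap. Without the 7, all controls come before all MS mice, and number and rearing cannot be told apart. Without these 7 high-numbered controls, 1 of the 281 passed. A further setting, chosen after seeing the data, added the slope of each library's gene levels on G and C content as a covariate and gave 6. Neither number has the share of all genes in the same fit beside it.

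GE1 is the effect of MS in Tph2+/- mice minus that in Tph2+/+ mice, and asks whether the stress acted differently in the 2 genotypes. By the thresholds 15 of 281 TEC genes (5.34%) were DEGs, against 3.19% of all genes tested. Of the 15, 13 were lower, where 2.64% of all genes were, and 2 were higher. None passed after adjustment, and 0% of all genes did. The smallest adjusted p was 0.1, while 30 had an unadjusted p below 0.05 (10.7%, against 8.11% of all genes). The median lg2FC was 0.07 over the 281 and 0.01 over all genes tested. The 13 lower DEGs all share exons with the opposite gene and cover its start, as 84 of the 281 do. Their exons held 47.3% to 67.0% G and C and 27.9 to 111 CG pairs per kb.

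Gm9870 had the smallest p. It lies over the start of Slain2, which acts at the plus ends of microtubules (chromosome 5, 72912587 to 72914942, minus strand), and its stretch above holds 13 CG pairs. Its level, in CPM scaled by the library factors of edgeR, was 9.96 to 31.6 (median 22.1) under C and 9.72 to 104 (35.9) after MS in Tph2+/+ mice. Tph2+/- mice had 18.4 to 77.6 (median 35.3) under C and 11.3 to 53.6 (24.6) after MS, and Tph2-/- mice 13.9 to 28.2 (median 24.7) under C and 13.6 to 35.4 (24.01) after MS. All groups overlapped, and the highest values lay in Tph2+/+ MS and Tph2+/- C. The lg2FC with its standard error was -1.78 ± 0.46, adjusted p = 0.1 for GE1 and -0.85 ± 0.49, adjusted p = 1 for GE2 (edgeR).

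Gm45444 also had its highest medians in Tph2+/+ MS and Tph2+/- C. It covers the start of Cyth2, an exchange factor for Arf GTPases (chromosome 7, 45814022 to 45814919, plus strand), and Tph2+/+ mice had 43.6 to 92.1 CPM (median 74.3) under C and 55.5 to 269.6 (111) after MS. The values were 64.9 to 198 (median 119.6) under C and 62.3 to 204 (84.6) after MS for Tph2+/-, and 41.7 to 100.3 (median 66.3) under C and 60.5 to 168 (87.9) after MS for Tph2-/-. All groups overlapped, and single mice reached furthest up in Tph2+/+ MS. Its lg2FC for GE1 was -1.31 ± 0.35, adjusted p = 0.1.

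Gm9905 covers the start of Mettl9, a methyltransferase (chromosome 7, 121033252 to 121035096, minus strand), and 2210406H18Rik lies in an intron of the same gene (121062852 to 121063959, minus strand). The pair moved in opposite directions for GE1, with a lg2FC of -1.10 ± 0.30, adjusted p = 0.1 for Gm9905 and 0.58 ± 0.19, adjusted p = 0.179 for 2210406H18Rik. Gm9905 had 59.8 to 114 CPM (median 85.1) under C and 72.2 to 265 (111) after MS in Tph2+/+ mice, against 64.5 to 214 (median 127) under C and 59.7 to 186 (94.4) after MS in Tph2+/-. The intronic 2210406H18Rik had 34.2 to 55.6 CPM (median 50.4) under C and 32.97 to 54.9 (44.3) after MS in Tph2+/+ mice, against 19.2 to 53.7 (median 37.99) under C and 43.5 to 61.1 (54.9) after MS in Tph2+/-. Its lowest values lay in Tph2+/- C and those of Gm9905 in Tph2+/- MS and Tph2+/+ C, by narrow margins. Mettl9 had a mean of 2.96 counts and was not tested.

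At 2 other genes a pair of TEC genes had unlike values. Over Hnrnpf, which encodes a splicing factor, 4933440N22Rik had a lg2FC of -1.67 ± 0.44, adjusted p = 0.1 for GE1, while Gm43863, over another start, had 0.05 ± 0.13. Gm37811 at the start of C1ql3 had -0.61 ± 0.21, adjusted p = 0.219, and Gm37824, 80 bases of which lie opposite to an internal exon of C1ql3, had 0.08 ± 0.26. These differences within pairs were not tested. Gm37811 was by far the most abundant of the 13, with 730.3 to 1098 CPM (median 883) under C and 615 to 1345 (1039) after MS in Tph2+/+ mice and 699 to 2017 (median 1192) under C and 795 to 1161 (949) after MS in Tph2+/-.

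The remaining lower DEGs were Gm10461 (Yes1, a kinase of the Src family), Gm10676 (Mypop), Gm43545 (Nudt9, which cleaves ADP-ribose), Gm45667 (Cavin3, a protein of caveolae), Gm45102 (Synm, an intermediate filament protein), Gm44878 (Ppp6r1, a regulatory subunit of phosphatase 6), Gm45212 (Mtmr10) and Gm43592 (Evi5), where the opposite gene stands in brackets. Over all 13 the lg2FC ran from -1.78 to -0.61. The opposite genes C1ql3 and Mtmr10, the only ones of these with a mean of at least 10 counts, had a lg2FC of -0.64 ± 0.37 and -0.32 ± 0.35 and were not DEGs. Of 78 TEC genes whose opposite gene was tested, 3 were DEGs for GE1, and none of the 66 opposite genes was.

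Gm38273 was the higher DEG with the smallest p. It lies opposite to an intron of Cacnb2, a subunit of voltage-gated calcium channels (chromosome 2, 14735546 to 14737927, minus strand), and Tph2+/+ mice had 141 to 204 CPM (median 171.5) under C and 91.9 to 144 (121) after MS. Tph2+/- mice had 132.9 to 197.5 (median 141) under C and 117 to 240.1 (149) after MS, and Tph2-/- mice had 126 to 194 (median 151.1) under C and 116 to 182.1 (161) after MS. Tph2+/+ MS was the low group and overlapped the lowest values of the other 5. The lg2FC was 0.65 ± 0.17, adjusted p = 0.1 for GE1, with 0.53 ± 0.31 for Cacnb2 itself. Short of the threshold stood Gm38383 (0.95 ± 0.36), which has no opposite gene, and 4930435N07Rik (0.31 ± 0.12) in an intron of Fam155a.

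**Figure D3:**
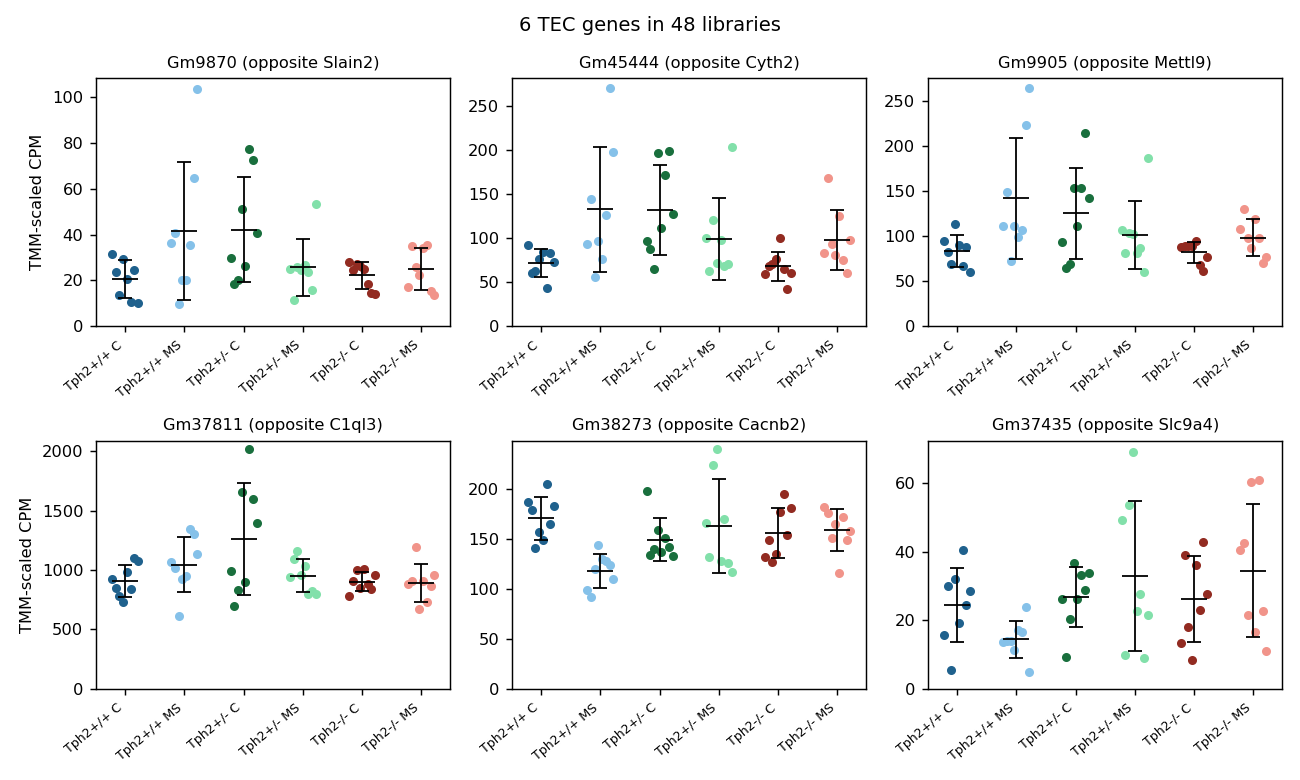
Each point is a mouse, with the CPM scaled by the library factors of edgeR from 0 upward and 8 mice per group, and bars give the mean and SD. Single mice of Tph2+/+ MS, Tph2+/- C and Tph2+/- MS stand high for Gm9870, Gm45444 and Gm9905, while Gm38273 was lowest in Tph2+/+ MS, with 91.9 to 144 CPM.

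GE2, the same interaction for Tph2-/- mice, gave 1 DEG of 281 (0.356%) against 0.532% of all genes tested. None passed after adjustment (0% of all genes), and 7 had an unadjusted p below 0.05 (2.49%, against 3.37% of all genes). The DEG was Gm38273 with a lg2FC of 0.55 ± 0.17, adjusted p = 1. GE1 and GE2 share the Tph2+/+ mice, so the values are set side by side and are not independent. The next higher were Gm2065 (0.31 ± 0.13) opposite to Hmgn3, 4930470B04Rik (0.53 ± 0.22) and Gm37685 (0.83 ± 0.35) in an intron of Golim4. The next lower were Gm37206 (-0.30 ± 0.13) opposite to Rbm4b, Gm43344 (-0.66 ± 0.33), Gm45667 (-0.67 ± 0.36) and B230377A18Rik (-0.70 ± 0.38), none of which was a DEG. Without the 7 high-numbered control mice 6 of 281 were DEGs for GE2, and without the 4 libraries rich in Gm42418 none was. The share of all genes in these fits is not given, so the numbers are not set against it.

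**Figure D4:**
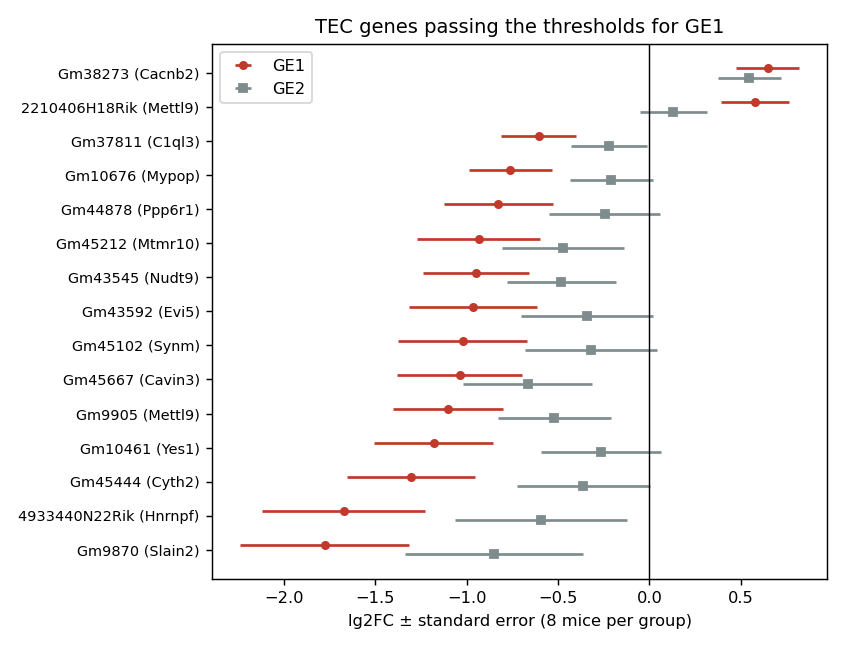
The 15 TEC genes that passed the thresholds for GE1, with the lg2FC and its standard error for GE1 (circles) and GE2 (squares) and the opposite gene in brackets. The 13 lower genes had a lg2FC from -1.78 to -0.61 for GE1 and from -0.85 to -0.21 for GE2, which shares the Tph2+/+ mice with GE1.

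Within Tph2+/+ mice, MS against C gave 8 DEGs (2.85%) against 2.75% of all genes tested. None passed after adjustment (0% of all genes), and 24 had an unadjusted p below 0.05 (8.54%, against 7.88% of all genes). Of the 8, 7 were higher, where 2.18% of all genes were, while over the 281 the median lg2FC was -0.06 and 100 were above 0. With no filter on low counts 11 were higher and 7 lower, with no share of all genes in that fit to set them against. Higher after MS with the smallest p were Gm9905 (0.79 ± 0.22, adjusted p = 0.167) and Gm45667 (0.91 ± 0.25, adjusted p = 0.167). Gm45667 had 13.6 to 24.4 CPM (median 19.9) under C and 25.6 to 56.6 (31.9) after MS, so that these groups did not overlap. Lower was Gm38273 (-0.53 ± 0.12, adjusted p = 0.167). GE1 contains these mice, so its values for the same genes are not independent.

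In Tph2+/- mice 4 of 281 (1.42%) were DEGs after MS, against 0.744% of all genes, with none after adjustment (0% of all genes) and 12 at an unadjusted p below 0.05 (4.27%, against 3.99% of all genes). 2210406H18Rik was higher (0.47 ± 0.13, adjusted p = 0.691), and Gm10461 (-0.65 ± 0.23), Gm37811 (-0.41 ± 0.15) and Gm10676 (-0.44 ± 0.16) were lower. Without the 7 high-numbered controls, and so with fewer mice, the count was 1, and with the covariate for G and C it was 7. Neither has the share of all genes in the same fit beside it. In Tph2-/- mice a single one (0.356%) passed, against 0.744% of all genes and 0% after adjustment, with 12 at an unadjusted p below 0.05 (4.27%, against 4.89% of all genes). This was Gm37539, with 61 bases opposite to an exon of Qsox1, a sulfhydryl oxidase. It had 34.1 to 72.6 CPM (median 52.7) under C and 49.8 to 79.3 (72.2) after MS, a lg2FC of 0.38 ± 0.11, adjusted p = 0.899. Without the high-numbered controls, 4 passed, again with no share of all genes in the same fit.

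Under C, Tph2+/- against Tph2+/+ mice gave 12 DEGs (4.27%) against 2.2% of all genes tested. None passed after adjustment (0% of all genes), and 31 had an unadjusted p below 0.05 (11.0%, against 6.93% of all genes). Of the 12, 11 were higher, where 1.77% of all genes were, while over the 281 the median lg2FC was -0.06 and 105 were above 0. With no filter on low counts 15 were higher and 13 lower, and without the 7 high-numbered controls 1 was higher and 1 lower. For these and the other alternative fits of this comparison the share of all genes is not given. The higher ones were led by Gm45444 (0.89 ± 0.26, adjusted p = 0.335) and 4933440N22Rik (1.12 ± 0.33, adjusted p = 0.335). All 11 cover a start of the opposite gene. The only lower one was Gm37372 (-0.68 ± 0.24, adjusted p = 0.435), which has no opposite gene, at 7.36 to 28.6 CPM (median 20.01) in Tph2+/+ mice and 5.51 to 20.7 (11.2) in Tph2+/- mice. Without the 7 high-numbered controls, which left 6 mice in each group, the count was 2, of which 1 was a DEG with all mice. As examples from the 12, called or not in that fit, the lg2FC was 0.48 for Gm37811, 0.82 for Gm45444, 0.64 for Gm43592 and 0.34 for Gm9905. With all mice these were 0.47, 0.89, 0.75 and 0.61. Leaving out single libraries gave 6 to 16, with 6 without replicate 6 of Tph2+/- C and 7 without its replicate 4, 7 or 8 or without replicate 2 of Tph2+/+ C. Among the marker lists, summed raw counts of neuron markers were 22 to 128 (median 90) in Tph2+/+ and 27 to 169 (133.5) in Tph2+/- mice under C, those of excitatory neurons 7 to 27 (20.5) and 16 to 46 (30.5), and those of oligodendrocyte precursors 13 to 25 (18) and 13 to 33 (28.5). In Tph2-/- mice under C, compared next, the same lists had 63 to 206 (139), 20 to 35 (27) and 17 to 43 (25.5). The 3 groups overlapped in all 3 lists, and the part of these markers in the result was not tested. The 3 are part of 14 lists, and the sums are not scaled to library size. Of the other lists, medians under C were lower in Tph2+/- than in Tph2+/+ mice for striatal projection neurons (20 against 21.5) and amygdala (36 against 40.5). They were equal for astrocytes (66) and higher for the rest, as for inhibitory neurons (264 against 251.5). After MS, neuron markers had medians of 86 in Tph2+/+ and 99.5 in Tph2+/- mice. With the covariate for G and C the number of DEGs was 6, of which 5 were DEGs without it. The 7 no longer called then had a lg2FC of 0.63 (Gm10461), 0.59 (Gm43592), 0.39 (Gm9905), 0.36 (Gm43545), 0.33 (4930577N17Rik), 0.27 (Gm10676) and -0.63 (Gm37372), against 0.63, 0.75, 0.61, 0.58, 0.43, 0.47 and -0.68 without it.

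Tph2-/- against Tph2+/+ mice under C gave 1 DEG (0.356%), against 0.62% of all genes and 0.0177% of all genes after adjustment, where no TEC gene passed, and 4 had an unadjusted p below 0.05 (1.42%, against 3.26% of all genes). It was Gm43808 over the start of Tmem214 (chromosome 5, 30868764 to 30870828, minus strand), with 161 to 244.6 CPM (median 192.1) in Tph2+/+ mice and 122 to 188.1 (155.8) in Tph2-/- mice. The groups overlapped, and the lg2FC was -0.32 ± 0.08, adjusted p = 0.566.

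After MS, Tph2+/- against Tph2+/+ mice gave 4 DEGs, all higher (1.42% against 1.24% of all genes, none and 0% after adjustment), with 15 at an unadjusted p below 0.05 (5.34%, against 5.60% of all genes). The count was 2 without the 4 libraries rich in Gm42418 and 2 with only the groups in the contrast. Against Tph2+/+ MS, Tph2-/- MS mice also had 4, all higher (1.42% against 2.13% of all genes, none against 0.0177% after adjustment), with 17 at an unadjusted p below 0.05 (6.05%, against 7.41% of all genes). Both comparisons share the Tph2+/+ MS mice. The lg2FC was 0.46 ± 0.12 and 0.42 ± 0.12 for Gm38273, and 0.72 ± 0.25 and 0.81 ± 0.25 for Gm37685. Gm42540 (0.36 ± 0.13) was the other DEG in Tph2+/- and Gm42741 (0.40 ± 0.14) that in Tph2-/- mice. Gm37435 covers an end of Slc9a4, a sodium/proton exchanger (chromosome 1, 40582895 to 40586841, minus strand), and after MS had 4.82 to 23.7 CPM (median 13.96) in Tph2+/+, 9.08 to 69.2 (25.2) in Tph2+/- and 10.9 to 61.1 (31.6) in Tph2-/- mice. Its medians in the 3 control groups were 25.4 to 27.6, and all groups overlapped. The lg2FC after MS was 1.18 ± 0.37, adjusted p = 0.704 for Tph2+/- and 1.27 ± 0.36, adjusted p = 0.403 for Tph2-/- mice. With the covariate for G and C the count was 10 for Tph2-/- MS. The share of all genes is not given for the alternative fits after MS.

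Libraries differed in how gene levels followed base composition. In 48 libraries, the slope of gene levels on the share of G and C, taken over 5341 tested genes that are not among the 281, ranged from -0.21 to 0.40 (log2 per 10 percentage points). The 13 lower GE1 genes, as the mean of their log2 deviations, were highest in replicate 8 of Tph2+/+ MS (1.01, with a slope of 0.17), replicate 7 of Tph2+/- C (0.93, slope 0.08), replicate 7 of Tph2+/+ MS (0.86, slope 0.25), replicate 4 of Tph2+/- C (0.79, slope 0.17), replicate 6 of Tph2+/- C (0.64, slope 0.11) replicate 8 of Tph2+/- MS (0.45, slope 0.40) and replicate 2 of Tph2-/- MS (0.37, slope 0.29). The 8 libraries with the highest slopes were 6 of these 7 together with replicate 4 of Tph2-/- MS (deviation -0.08, slope 0.27) and replicate 1 of Tph2+/+ C (-0.08, slope 0.14). By genotype, the median deviation was -0.27 under C and 0.15 after MS for Tph2+/+, 0.19 and -0.10 for Tph2+/-, and -0.19 and -0.04 for Tph2-/- mice. The median slopes, given likewise, were -0.04 and 0.01, 0.04 and -0.03, and -0.09 and -0.04. Across the 281 TEC genes, which share all libraries, the G and C content correlated with the lg2FC at r = -0.48 for GE1, 0.52 for MS in Tph2+/+ and 0.51 for Tph2+/- under C, and across 5622 tested genes at -0.29, 0.28 and 0.32. It was 0.47 and 0.24 for MS in Tph2-/- mice, with 1 DEG, and from -0.26 to -0.03 over the 281 in the other 5 contrasts. With the slope as a covariate, GE1 had 12 DEGs among the 281, of which 10 were lower, and 8 of the 13 lower ones kept their call. The lg2FC of the other 5 was then -0.80 for Gm45212, -0.78 for Gm45667, -0.74 for Gm43592, -0.71 for Gm45102 and -0.56 for Gm44878, against -0.93, -1.04, -0.97, -1.02 and -0.83 without the covariate. Without the 7 high-numbered control mice, and so with fewer mice, it had 9, of which 7 were lower, while the lg2FC of the 6 genes no longer called was -0.61 for Gm37811, -0.86 for Gm43592, -0.83 for Gm9905, -0.71 for Gm43545, -0.68 for Gm44878 and -0.65 for Gm10676, against -0.61, -0.97, -1.10, -0.95, -0.83 and -0.76 with all mice. Leaving out single libraries gave 10 to 20 DEGs for GE1, and after adjustment 7 passed without replicate 8 of Tph2+/- MS, 5 without replicate 3 of Tph2+/- C and 4 without replicate 3 of Tph2+/+ MS. These refits were chosen after seeing the data. Their numbers count the 281 alone, with no share of all genes to set them against. The part of base composition in these differences was otherwise not tested.

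**Figure D5:**
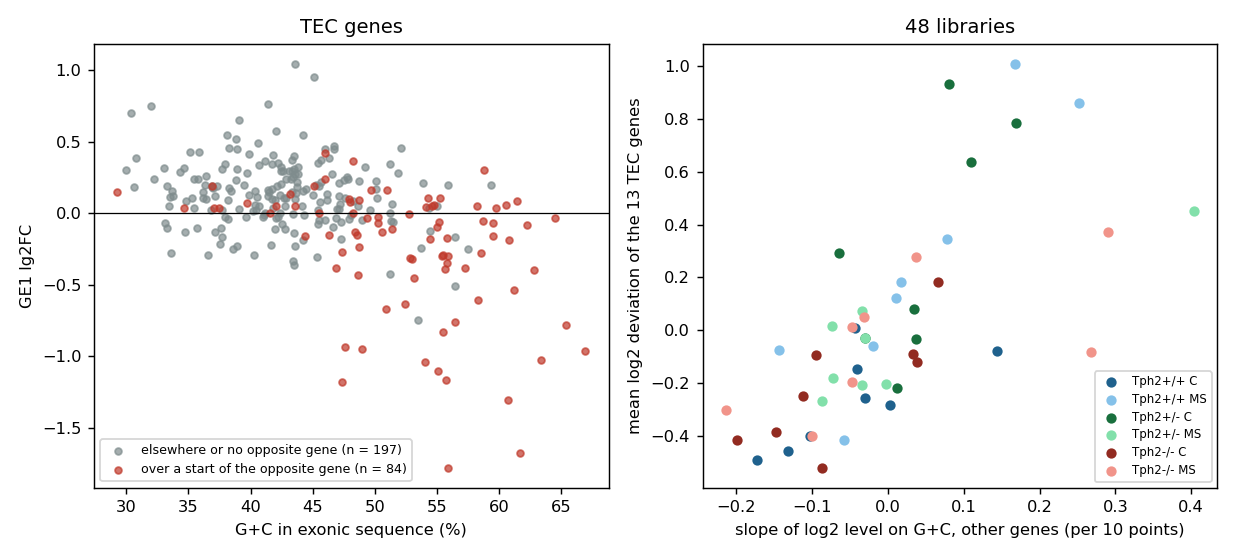
Left, the share of G and C in the exons of each of the 281 TEC genes against its lg2FC for GE1, with those over a start of the opposite gene in red. Right, for each of the 48 libraries, the slope of other genes' levels on G and C (log2 per 10 percentage points) against the mean log2 deviation of the 13 lower GE1 genes, coloured by group. The 13 genes lie on the right and lower side of the left panel, at 47.3% to 67.0% G and C, and the 6 libraries with the highest deviations had positive slopes, as had libraries with deviations below 0.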

How the data were processed

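Total RNA of the amygdala of 48 mice was sequenced as stranded read pairs of 125 bp. The authors deposited raw counts of read pairs per Ensembl gene, without normalization, and the submitters' processing notes name STAR, HTSeq, DESeq2 and GRCm38.p5. The annotation release and the strand setting are not given in the sources used here. All 48 columns were matched to a mouse, and the 5 special rows of the count table were kept out of library sizes. Groups came from the labels. No closest pair of libraries in a group agreed within sampling noise (chi-square per degree of freedom of at least 1.56). Intervals and limits from counts cover counting error only.

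Gene types, overlaps and sequences came from GENCODE M21, which holds 48058 of the 48440 genes. A TEC gene was placed opposite to the gene with the most overlapping exonic bases on the other strand, or else to one whose body it overlapped. Genes with a mean of at least 10 counts, without Lars2 as in the study, were normalized by TMM and fitted in edgeR 4.0.16 (R 4.3.3) with a coefficient per group. Contrasts were tested by the quasi-likelihood F test with Benjamini-Hochberg adjustment over 5644 genes. The standard error was the absolute lg2FC divided by the square root of F. This filter was chosen because SEs fell below the spread between mice without it in earlier results of these data, which are not shown here. The study used another version of DESeq2. Here DESeq2 1.42.0 was an alternative. In data simulated for GE1 over 5644 genes, 84 of 100 genes changed by 1 and all 100 changed by 2 on the log2 scale passed the thresholds, as did 61 of 5444 unchanged genes.

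Named genes were the 12 with the most counts, the 6 highest per kb, the 10 smallest p among groups, for GE1 and GE2 the 4 with the smallest p each way, the 2 smallest for the other contrasts where past the thresholds, those next to the limit of 10, the 4 longest overlaps, the 6 highest with no opposite gene, and those opposite to a marker. Alternatives were listed beforehand, except the covariate for G and C and the leaving out of single libraries, which were chosen after seeing the data. Other genes named were chosen after their values were seen. The TEC genes and lists were chosen with earlier results of these data known. Tables were made with Python 3.11.15, pandas 2.3.3 and NumPy 2.4.6, and figures with matplotlib 3.10.9.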

Additional observations from a re-analysis of the deposited data

Results flagged for a closer look

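The effect of MS differed between Tph2+/- and Tph2+/+ mice at the nominal thresholds, by the interaction term itself, for the 13 lower genes Gm9870 (-1.78), 4933440N22Rik (-1.67), Gm45444 (-1.31), Gm10461 (-1.18), Gm9905 (-1.10), Gm45667 (-1.04), Gm45102 (-1.02), Gm43592 (-0.97), Gm43545 (-0.95), Gm45212 (-0.93), Gm44878 (-0.83), Gm10676 (-0.76) and Gm37811 (-0.61) and for the higher Gm38273 (0.65) and 2210406H18Rik (0.58), where the values are lg2FC for GE1. At the same thresholds Gm38273 also passed for GE2 (0.55), which shares the Tph2+/+ mice with GE1. It was the only one of 281 (0.356%), against 0.532% of all genes, and none passed for GE2 without the 4 libraries rich in Gm42418. None of the genes named here passed after adjustment over 5644 genes.

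Among 15 genes in 6 groups each, 9 counts stood far from the other 7 of their group by Dixon's criterion, which flags about 1 in 20 groups by chance. Replicate 8 of Tph2+/- MS was the highest by that criterion for 6 genes, with 190 counts of Gm45444 (the next mouse had 89), 174 of Gm9905 (91), 152 of Gm10676 (76), 132 of Gm43545 (70), 50 of Gm9870 (21) and 35 of 4933440N22Rik (21). Its slope of gene levels on G and C was the highest of all 48 libraries (0.40). Gm10461 had 27 counts in replicate 8 of Tph2+/+ MS (17 in the next) and 30 in replicate 7 of Tph2+/- C (18). Gm37435 had 4 counts in replicate 2 of Tph2+/- C (19 in the next), which is among the 4 libraries rich in Gm42418.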

How the results depend on the processing

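Of 500 values of DEGs under alternatives, none changed direction, 435 stayed past the thresholds and 65 did not, 22 of them without the 7 high-numbered controls. With no filter on low counts, where standard errors fell below the spread between mice, the numbers past the thresholds were 21 among all groups, 21 for GE1, 6 for GE2, 18, 10 and 6 for MS in Tph2+/+, Tph2+/- and Tph2-/-, 28 for Tph2+/- under C, and 11 and 13 for Tph2+/- and Tph2-/- after MS, and 13, 12, 7, 1, 9, 2 and 4 passed after adjustment among all groups, for GE1, MS in Tph2+/+, MS in Tph2-/-, Tph2+/- under C, Tph2+/- after MS and Tph2-/- after MS. Without the high-numbered controls the numbers were 1 among all groups, 9 for GE1, 6 for GE2, 1 and 4 for MS in Tph2+/- and Tph2-/- and 2 for Tph2+/- under C. With the covariate for G and C they were 6 among all groups, 7 and 2 for MS in Tph2+/- and Tph2-/-, 6 for Tph2+/- under C and 10 for Tph2-/- after MS. Without the 4 libraries rich in Gm42418 they were 0 for GE2 and 2 for Tph2+/- after MS. With only the groups in the contrast they were 2 each for MS in Tph2+/- and Tph2-/- and Tph2+/- after MS. The causes were not tested. In this section the numbers past the thresholds or after adjustment count the TEC genes alone. The share of all genes under the same alternatives is not given, so these numbers are not set against it. Leaving out single libraries gave 10 to 20 (0 to 7 after adjustment) for GE1, 6 to 12 (0) for MS in Tph2+/+ and 6 to 16 (0) for Tph2+/- under C. Same-numbered mice of different groups did not deviate together (median r = 0.00 over 120 pairs, -0.38 to 0.32), and with the replicate number as a block GE1 had 12, MS in Tph2+/+ 8 and Tph2+/- under C 12 genes past the thresholds. DESeq2's size factors, DESeq2, filterByExpr and robust edgeR changed no number by more than 1.5 times. A limit of 5 or 20 mean counts would have kept 346 or 211 TEC genes, and 112 shared at least 200 exonic bases with the opposite gene. The median TEC gene had 38.6 counts, and the part of depth in the counts of calls was not tested.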
